A study of Mus musculus with 4 samples.

Results

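The response of wild-type mouse colonic epithelial cells to leukaemia inhibitory factor (LIF) was described by comparing 1 RNA sequencing library from LIF-treated cells with 1 from untreated cells, gene by gene. A gene was compared when its mean over the 4 libraries of the series was at least 1 FPKM (fragments scaled to transcript length and library size), which kept 12274 of 17604 genes. The difference is log2((LIF + 1) / (control + 1)), so 1 stands for a doubling of FPKM + 1, and changes of genes near 1 FPKM are understated. The filter did not use the difference itself, but its mean includes both libraries compared. A gene high in a single library could therefore pass. Gm21002 and Gm14850 did so. Untreated wild type held 12.4 FPKM of Gm21002 and 5.09 FPKM of Gm14850, and the remaining libraries were listed at 0 for both. Both are among the genes at least 2-fold lower with LIF. Tceanc lay just under the filter, with 0.98 FPKM in the control library and 0.76 FPKM with LIF, and Zfp810 just over it, with 1.02 and 1.30 FPKM. Below, a pair of FPKM values of a genotype gives the library without LIF first and the library with LIF second, and a value in parentheses is the wild-type log2 difference.

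The cells were taken from the colon of C57BL/6 mice and kept on Matrigel-coated plates in serum-containing medium with insulin for 24 h, after which unattached material was removed. The treated wells then received 20 ng/ml LIF. The 4 groups were wild type without LIF, wild type with LIF, Stat4-/- without LIF and Stat4-/- with LIF, and each had 1 library. The labels mention several treatment times and the design text mentions duplicates, but the time for each library, and whether RNA was pooled, were not given in the sources used here. With 1 library per group no difference could be set against a replicate spread, so sizes and directions are given with no test, and each difference may lie within the variation between cultures. The Stat4-/- libraries are given beside the wild-type ones as values only.

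LIF is a cytokine of the interleukin-6 family. It binds the LIF receptor, which pairs with gp130 (encoded by Il6st), and the JAK kinases bound to these receptors phosphorylate STAT proteins, chiefly STAT3. Dimers of STAT enter the nucleus and switch on genes that include Socs3, whose product in turn blocks gp130 and JAK signalling. In the gut, gp130 cytokines are known for supporting epithelial repair and host defence. The series title names STAT4, a STAT best known from lymphocytes, as a mediator of the LIF effect on intestinal inflammation.

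The label of the cells was checked against marker genes. The 24 general epithelial markers were all compared, with wild-type levels that summed to 13180 FPKM without LIF and 12961 FPKM with it. The keratin gene Krt8 was at 3173 and 3138 FPKM and the adhesion gene Epcam at 499 and 500.3 FPKM. Markers of other cells were also present. Summed wild-type levels without and with LIF were 1208 and 1171 FPKM for 21 fibroblast genes, 544 and 539 FPKM for 16 endothelial genes, 312 and 297 FPKM for 12 smooth muscle genes, 204 and 237 FPKM for 24 macrophage genes, and 47.7 and 60.7 FPKM for 21 T and NK cell genes. Ccl5, also a chemokine gene, made up 28.6 and 38.4 FPKM of the T and NK cell sum. No listed gene of these 5 types was at 0 in a wild-type library. Because the RNA came from whole cultures, fewer cells of a type and less RNA per cell cannot be told apart. The deleted gene, Stat4, was at 19.7 FPKM in the control library and 20.5 FPKM with LIF in wild type, against 2.01 and 2.98 FPKM in the Stat4-/- libraries. The Y-linked gene Ddx3y was at 5.86 and 6.34 FPKM in wild type and at 0.05 and 0.07 FPKM in Stat4-/-, so the genotypes also differed in Y-linked RNA, while both wild-type libraries carried it. The spacing of low FPKM values put the depth near 24.3 M fragments for untreated wild type and 21.8 M with LIF. These depths are approximate, since only 65.9% and 71.4% of the low values used came within 0.15 of a whole fragment, and the fragment numbers and intervals below rest on them.

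The bulk of genes lay close to equal levels. The median difference over the 12274 genes was 0.00, the quartiles were -0.08 and 0.10, and the 5th and 95th percentiles were -0.25 and 0.28 (log2). LIF was above control for 50.9% of the genes and below it for 48.7%. Only 0.0652% of genes were at least 2-fold higher on this scale and 0.0652% at least 2-fold lower, 8 genes each way. At least 1.5-fold higher were 72 genes (0.587%), and at least 1.5-fold lower were 35 genes (0.285%). When each gene was set against genes of its transcript length, the split was 46 higher and 41 lower. Among the 8838 genes whose mean reached 5 FPKM these numbers were 23 (0.26%) and 7 (0.0792%). The spread narrowed with expression level. The median absolute difference was 0.14 in the 3436 genes with a mean of 1 to 5 FPKM, 0.09 between 5 and 20 FPKM, and 0.07 in the 3508 genes between 20 and 100 FPKM. None of the 702 genes whose mean reached 100 FPKM passed 1.5-fold in either direction.

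**Figure D1:**
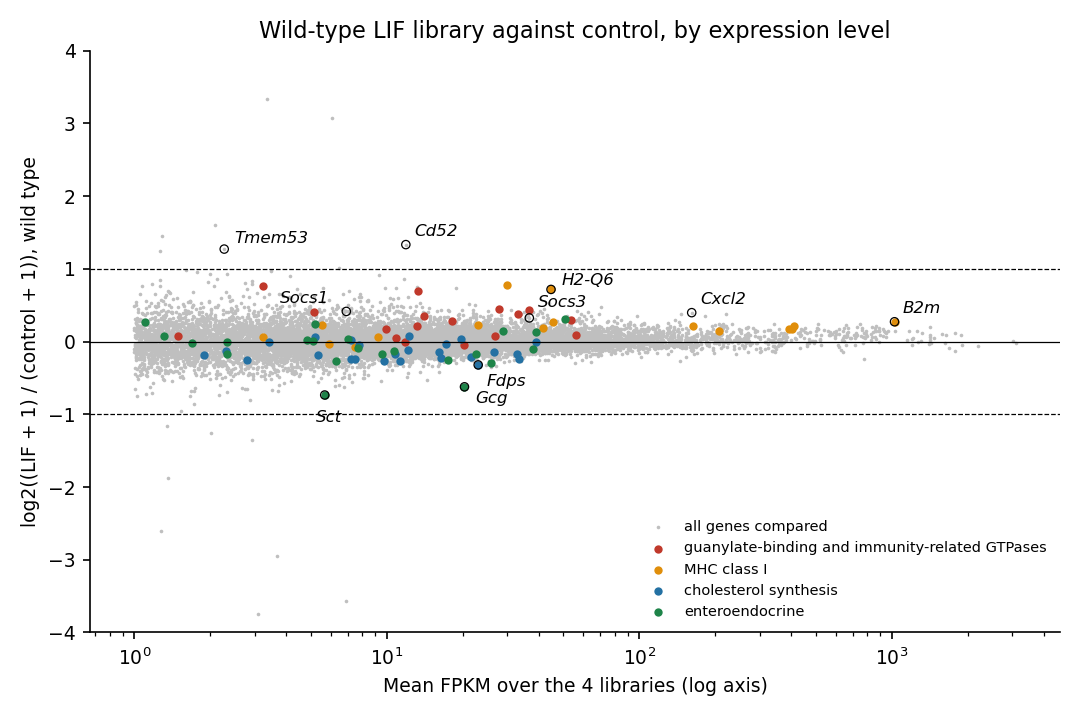
Difference between the wild-type LIF and control libraries (vertical axis, log2((LIF + 1) / (control + 1))) against the mean FPKM over the 4 libraries (horizontal log axis) for the 12274 genes compared, with 4 gene lists in colour, named genes circled and dashed lines at 2-fold. Points close in on 0 as the level rises, with Cd52 at 1.33, Socs3 at 0.33, B2m at 0.27 and Gcg at -0.62.

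Of the 16 genes past 2-fold, 6 have over 50% of their sequence, cut into words of 31 bases, in common with other genes, so that reads can be assigned either way, and 6 had no matching transcript to measure this on. Tmem254b was at 10.9 FPKM in the control library and listed at 0 with LIF, and its neighbour Tmem254c was at 0.01 and 9.23 FPKM. The 3 Tmem254 genes summed to 11.2 FPKM without LIF and 9.23 FPKM with it. In the same way Sprr2a2 was at 6.99 and 0.03 FPKM, and the 3 Sprr2a genes together at 1899 and 1979 FPKM. These are epithelial small proline-rich genes, and nearly all of the sequence of Sprr2a2 (97.8% of its 31-base words) is shared with other genes. The genes past 2-fold with little or no shared sequence were Cd52, Tmem53 and Krtap4-16. Cd52 encodes a short glycoprotein on the surface of lymphocytes and macrophages, and is described with the leukocyte markers. Tmem53, a membrane protein gene, was at 0.95 FPKM in the control library and 3.71 FPKM with LIF (1.27), near 23 and 80 fragments, beside 2.12 and 2.29 FPKM in Stat4-/-. Krtap4-16, a keratin-associated protein gene, was at 4.17 FPKM in the control library and 1.17 FPKM with LIF (-1.25), near 96 and 24 fragments, beside 0.94 and 1.76 FPKM in Stat4-/-. For this gene the control library of wild type was the high one of the 4. The other genes past 2-fold were Gm15308, Gm8923, Gm21498, Hist1h4a and Hist2h3b among the higher, and Gm21002, Gm14850, Hist1h4n, Rsc1a1 and Defa4 among the lower.

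The receptor chains and kinases of the LIF pathway were present in both wild-type libraries at similar levels. Lifr, the ligand-binding chain, was at 4.79 FPKM in the control library and 4.14 FPKM with LIF (-0.17), and the shared chain Il6st was at 62.3 and 61.9 FPKM (-0.01). Of the 6 gp130 family receptors compared, 3 were above and 3 below control, with a median of 0.02. Among the 11 JAK and STAT genes, 4 were above and 7 below, and the median was -0.02. Stat3 was the highest of these 11 differences at 0.13, with 55.9 and 61.2 FPKM, and its level was 66.1 and 65.6 FPKM in Stat4-/-. Jak1, a kinase that binds gp130, was at 56.9 and 55.96 FPKM (-0.02). The cells also carried RNA for gp130 ligands themselves. Lif was at 41.8 FPKM in the control library and 45.4 FPKM with LIF (0.12), Il6 at 26.4 and 29.8 FPKM (0.17) and Il11, at the highest level of the ligands, at 196 and 207 FPKM (0.08).

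Feedback inhibitors of the pathway showed their largest positive differences in Socs1 and Socs3, whose products bind JAK kinases and, for Socs3, gp130. Socs3 (chromosome 11, 117966079 to 117970047, GRCm38) was at 28.7 FPKM in the control library and 36.2 FPKM with LIF, a difference of 0.33. With about 1776 and 2014 fragments, the 95% counting interval of the ratio was 1.18 to 1.35. Such intervals cover counting error only, not the variation between cultures. The Stat4-/- libraries held Socs3 at 38 and 43.8 FPKM, so its level without LIF there was above the LIF level of wild type. Socs1 was at 4.37 FPKM in the control library and 6.16 FPKM with LIF (0.42), with a counting interval of 1.21 to 1.64, and at 7.67 and 9.43 FPKM in Stat4-/-. Ptpn1, a phosphatase that acts on JAK2 and TYK2, was at 16.6 and 19.5 FPKM (0.22), Socs2 at 15.1 and 17.2 FPKM (0.18) and Cish at 7.0 and 7.46 FPKM (0.08). Over the 16 inhibitors compared, 10 were above control and 6 below, with a median of 0.06, and the lowest was Pias3 at -0.14. None reached 1.5-fold.

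The start of Socs3 is shown because it is the textbook target of LIF and holds a STAT-type sequence. RefSeq (GRCm38.p6) gives the following bases for chr11:117969317-117969616 on the minus strand, 250 before to 50 after the transcript start, with the match to TTCNNNGAA in capitals.
Socs3: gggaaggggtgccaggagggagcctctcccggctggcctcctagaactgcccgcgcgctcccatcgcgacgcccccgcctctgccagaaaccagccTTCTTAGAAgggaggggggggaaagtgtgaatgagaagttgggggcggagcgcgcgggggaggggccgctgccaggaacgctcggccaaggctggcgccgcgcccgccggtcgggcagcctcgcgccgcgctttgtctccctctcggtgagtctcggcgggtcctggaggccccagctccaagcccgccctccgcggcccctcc
The match begins 154 bases before the start used for this window. The window lies inside the gene span given above, which reaches 117970047. The match is therefore not upstream of the whole annotated gene. This palindromic motif, searched on both strands, was found in 8.30% of all 32851 windows of this length, in 8.46% of the 9448 compared genes with a window, and in 7 of 33 genes of the gp130-STAT3 target list. A match describes letters and not binding.

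Among 36 compared genes of a gp130-STAT3 target list, 27 were above control and 9 below, against 50.9% above over all genes, and the median was 0.10. None reached 1.5-fold. The transcription factor genes stood above control. Cebpd, an early target of STAT3, was at 46.6 FPKM in the control library and 56.7 FPKM with LIF (0.28), and at 60.8 and 73.9 FPKM in Stat4-/-. Junb, an AP-1 subunit, was at 197 and 233 FPKM (0.24), and at 244 and 257 FPKM in Stat4-/-. Klf4, a factor of differentiated surface cells, was at 53.5 and 63.4 FPKM (0.24), and Cebpb at 121 and 137 FPKM (0.18). Smaller positive values were seen for the kinase gene Pim1 (37.6 and 42.9 FPKM, 0.18) and for Myc (64.9 and 71.8 FPKM, 0.14). The target with the highest difference was Lcn2, which encodes the iron-trapping antimicrobial protein lipocalin-2, at 10.5 FPKM in the control library and 14.95 FPKM with LIF (0.47), and at 13.6 and 16.3 FPKM in Stat4-/-. Other defence genes of the list did not share that direction. Reg3b and Reg3g, which encode antibacterial lectins, were at 76.7 and 72.4 FPKM (-0.08) and 32.3 and 31.7 FPKM (-0.03). Bcl3 was nearly level at 29.6 and 30.5 FPKM (0.04), and the cyclin gene Ccnd1 was lower, at 27.5 and 24.4 FPKM (-0.17). In the Stat4-/- libraries 24 of the 36 were above their control, against 48.0% of all genes, with a median of 0.04.

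Immediate early genes, which cells switch on within minutes of many stimuli, were above control for 24 of 27 members, with a median of 0.15. Over all genes 50.9% were above. Junb is in this list and in the gp130-STAT3 target list, and Socs3 is in that list and among the inhibitors. The counts of these lists are therefore not separate. Fosb was at 4.55 FPKM in the control library and 6.53 FPKM with LIF (0.44), Klf2 at 14.3 and 18.7 FPKM (0.36) and Ier2 at 79.7 and 96.2 FPKM (0.27). Fos itself was at 48.9 and 55.5 FPKM (0.18) and Egr1 at 65.1 and 75.6 FPKM (0.21). Dusp2, a phosphatase gene of MAP kinases, was the 1 member past 1.5-fold, at 3.07 FPKM in the control library and 5.41 FPKM with LIF (0.66). It was at 5.24 and 4.45 FPKM in Stat4-/-, so there the LIF library was the lower one. The Stat4-/- median of the list was 0.07.

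**Figure D2:**
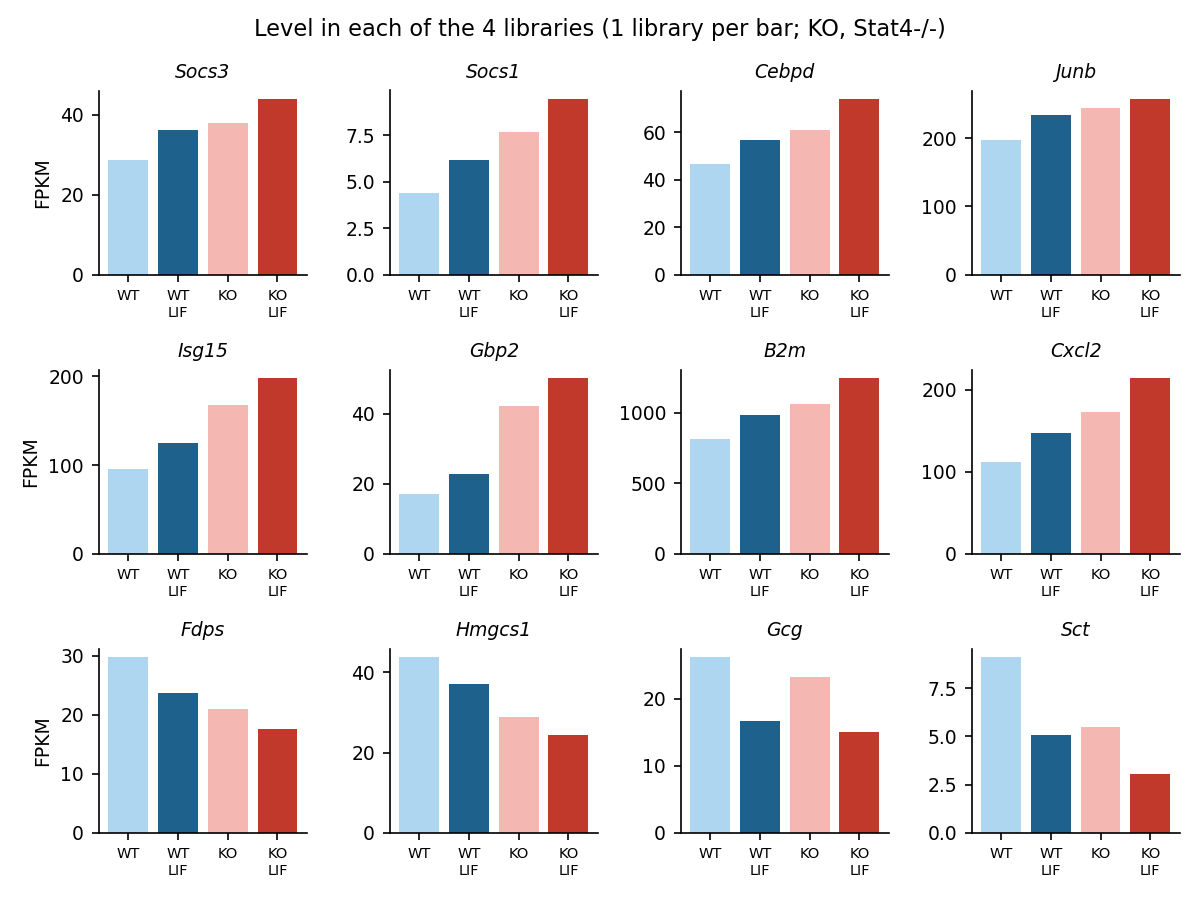
FPKM of 12 genes in the 4 libraries, 1 library per bar, with wild type (WT) in blue, Stat4-/- (KO) in red and the LIF library of each genotype in the darker shade; bars start at 0 and have no error because each group is 1 library. In wild type the bar with LIF is the higher one for the 8 genes of the upper rows, such as Isg15 at 96.04 and 125 FPKM, and the lower one for Fdps, Hmgcs1, Gcg and Sct.

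Interferon-responsive genes were higher with LIF as a group. Of 45 interferon response genes, 39 were above control and 6 below, with a median of 0.14, and 3 of them were at least 1.5-fold higher, against 0.587% of all genes. Of these 3, Phf11b shares 62.9% of its words with other genes, and the 4 Phf11 genes together were at 25.5 and 32.9 FPKM (0.35). Isg15, a ubiquitin-like modifier, was at 96.04 FPKM in the control library and 125 FPKM with LIF (0.38), and at 167 and 198 FPKM in Stat4-/-. Isg20, an antiviral exonuclease gene, was at 30.2 and 44.04 FPKM (0.53). Ifitm1, a membrane protein gene that restricts virus entry, was at 7.46 and 13.1 FPKM (0.73). The abundant family member Ifitm3 was at 500.1 and 585 FPKM (0.23). The antiviral genes Ifit1, Rsad2 and Zbp1 differed by 0.37, 0.40 and 0.39. The factors that drive such genes were closer to level, with Irf1 at 48.2 and 51.7 FPKM (0.10) and Stat2 at 30.1 and 29.9 FPKM (-0.01). Cxcl10, a chemokine gene strongly driven by interferon, was not higher in wild type, at 10.99 FPKM in the control library and 10.6 FPKM with LIF (-0.05), and was at 29.2 and 38.3 FPKM in Stat4-/-. The Stat4-/- median of the 45 genes was 0.12, with 40 above.

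Guanylate-binding proteins and immunity-related GTPases, which act on the vacuoles that hold intracellular microbes, had a larger median. It was 0.28 in wild type, with 15 of 17 above control, and 0.24 in Stat4-/-, with 17 above. Gbp2 was at 17.2 FPKM in the control library and 22.7 FPKM with LIF (0.38), and at 42.3 and 50.1 FPKM in Stat4-/-. Igtp was at 19.5 and 26.6 FPKM (0.43) and Gbp2b at 14.5 and 20.1 FPKM (0.45). Irgm1 and Irgm2 stood closer to level, at 43.5 and 46.2 FPKM (0.09) and 20.5 and 21.6 FPKM (0.07). Of the 17 genes, 5 shared over 50% of their words with another gene. For the near-identical Tgtp1 and Tgtp2 only the sum is given, 20.9 FPKM in the control library and 25.5 FPKM with LIF.

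The starts of Isg15 and Gbp2 are shown because they hold an interferon-type motif. The letters searched were TTTCNNTTTC on both strands, and matches are in capitals. The Isg15 window is chr4:156200769-156201068 on the minus strand and the Gbp2 window is chr3:142620413-142620712 on the plus strand (RefSeq, GRCm38.p6).
Isg15: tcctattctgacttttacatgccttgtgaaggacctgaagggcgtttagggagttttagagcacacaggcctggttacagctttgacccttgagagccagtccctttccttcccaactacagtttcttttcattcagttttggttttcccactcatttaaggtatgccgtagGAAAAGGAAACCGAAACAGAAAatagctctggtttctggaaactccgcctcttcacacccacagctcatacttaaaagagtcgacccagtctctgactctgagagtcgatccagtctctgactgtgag
Gbp2: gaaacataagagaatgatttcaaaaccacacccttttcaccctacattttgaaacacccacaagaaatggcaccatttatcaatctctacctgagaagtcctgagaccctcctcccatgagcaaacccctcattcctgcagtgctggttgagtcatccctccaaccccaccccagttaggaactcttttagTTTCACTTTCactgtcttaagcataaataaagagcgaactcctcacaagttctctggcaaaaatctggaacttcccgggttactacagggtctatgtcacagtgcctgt
In Isg15, 3 matches overlap and begin 78, 72 and 66 bases before the start. In Gbp2, 1 match begins 59 bases before it. The motif was in 3.44% of all windows and 3.76% of the compared genes with a window. It was in 17 of 34 interferon response genes, in 10 of 10 GTPase genes and in 3 of 11 MHC class I genes with a window. The STAT-type motif TTCNNNGAA was in 9 of the 34 and in 6 of the 10.

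Antigen presentation genes were also above control. MHC class I molecules show peptides from inside the cell to T cells, and 14 of 16 class I genes were above, with a median of 0.20. The light chain B2m was at 814 FPKM in the control library and 984 FPKM with LIF (0.27), and at 1064 and 1243 FPKM in Stat4-/-. The classical heavy chains H2-K1 and H2-D1 were at 321 and 363 FPKM (0.18) and 219 and 246 FPKM (0.17). Larger differences were seen for the non-classical pair H2-Q6 and H2-Q7, which share much sequence and summed to 47.8 FPKM without LIF and 80.8 FPKM with it, beside 67.6 and 102 FPKM in Stat4-/-. Of 13 immunoproteasome and peptide loading genes, which prepare peptides for class I, 10 were above control and 3 below, with a median of 0.09, and none reached 1.5-fold. Among the highest, the inducible proteasome subunit gene Psmb9 was at 7.55 and 10.3 FPKM (0.40), Psmb10 at 37.2 and 47.6 FPKM (0.35) and Psmb8 at 34.8 and 43.9 FPKM (0.33), and the peptide pump gene Tap1 was at 17.6 and 22.1 FPKM (0.31). The abundant chaperone gene Calr was at 453 and 433 FPKM (-0.07), and the list summed to 1325 and 1342 FPKM. For MHC class II, which presents peptides from outside the cell, 7 of 8 genes were above control with a median of 0.33. H2-Ab1 was at 11.3 and 15.3 FPKM (0.42), H2-Aa at 11.97 and 15.4 FPKM (0.34) and the invariant chain Cd74 at 35.3 and 39.1 FPKM (0.14). These levels were far under those of class I.

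Chemokine genes were above control for 17 of 22 members, against 50.9% of all genes, with a median of 0.15, and 0.24 in Stat4-/-. When each was set against genes of its transcript length, 14 of 22 were above and the wild-type median was 0.10. For the 14 members with a mean of at least 5 FPKM the median as deposited was 0.09. The neutrophil attractants were among them. Cxcl1 was at 249 FPKM in the control library and 294 FPKM with LIF (0.24), Cxcl2 at 111 and 147 FPKM (0.40) and Cxcl5 at 57.2 and 69.5 FPKM (0.28). Cxcl2 had the highest difference of the named genes whose mean reached 100 FPKM, and its Stat4-/- levels were 173 and 214 FPKM. The T cell attractant Ccl5 was at 28.6 and 38.4 FPKM (0.41) and the monocyte attractant Ccl2 at 147 and 172 FPKM (0.23). Csf3, the granulocyte growth factor, was at 5.82 and 8.58 FPKM (0.49). The broader inflammatory cytokine list was close to level, with 10 of 16 above and a median of 0.02. Tnf was at 7.14 and 7.23 FPKM (0.02). The 20 NF-kB subunits and inhibitors split 10 and 10, with a median of 0.00, and the inhibitor gene Nfkbia was at 111 and 125 FPKM (0.17).

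Several leukocyte markers were also higher with LIF. Of 19 macrophage genes compared, 14 were above control, against 50.9% of all genes, with a median of 0.11. At least 1.5-fold higher were 2 of them, Cd52 and Fcer1g, against 0.587% of all genes. The median was -0.04 in Stat4-/-, with 7 above. Cd52 (chromosome 4, 134082448 to 134095082) was at 4.59 FPKM in the control library and 13.1 FPKM with LIF, a difference of 1.33. These values are near 57 and 147 fragments, with a counting interval of 2.10 to 3.97 for the ratio. Its Stat4-/- levels were 12.7 and 17.2 FPKM, so the wild-type control library was the low one of the 4. Fcer1g and Tyrobp, signalling adaptors of myeloid and NK cells, were at 5.17 and 9.0 FPKM (0.70) and 6.01 and 8.68 FPKM (0.47). Laptm5, a lysosomal gene of blood cells, was at 7.17 and 10.2 FPKM (0.46). Other markers went the other way or stayed near level. The lysozyme gene Lyz2 was at 14.1 and 10.2 FPKM (-0.43), the receptor gene Csf1r at 3.33 and 2.95 FPKM (-0.13), and the pan-leukocyte gene Ptprc at 3.16 and 3.74 FPKM (0.19). Of 9 T and NK cell genes, 6 were above control with a median of 0.19, and the T cell receptor subunit gene Cd3e was at 1.17 and 1.53 FPKM. That list also holds Ccl5, given above with the chemokines, and Thy1, which is in the fibroblast list as well. Ccl5, at 28.6 and 38.4 FPKM, made up most of the summed level of the list, 47.7 and 60.7 FPKM. The part of leukocyte RNA in the interferon, MHC and chemokine differences was not tested.

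**Figure D3:**
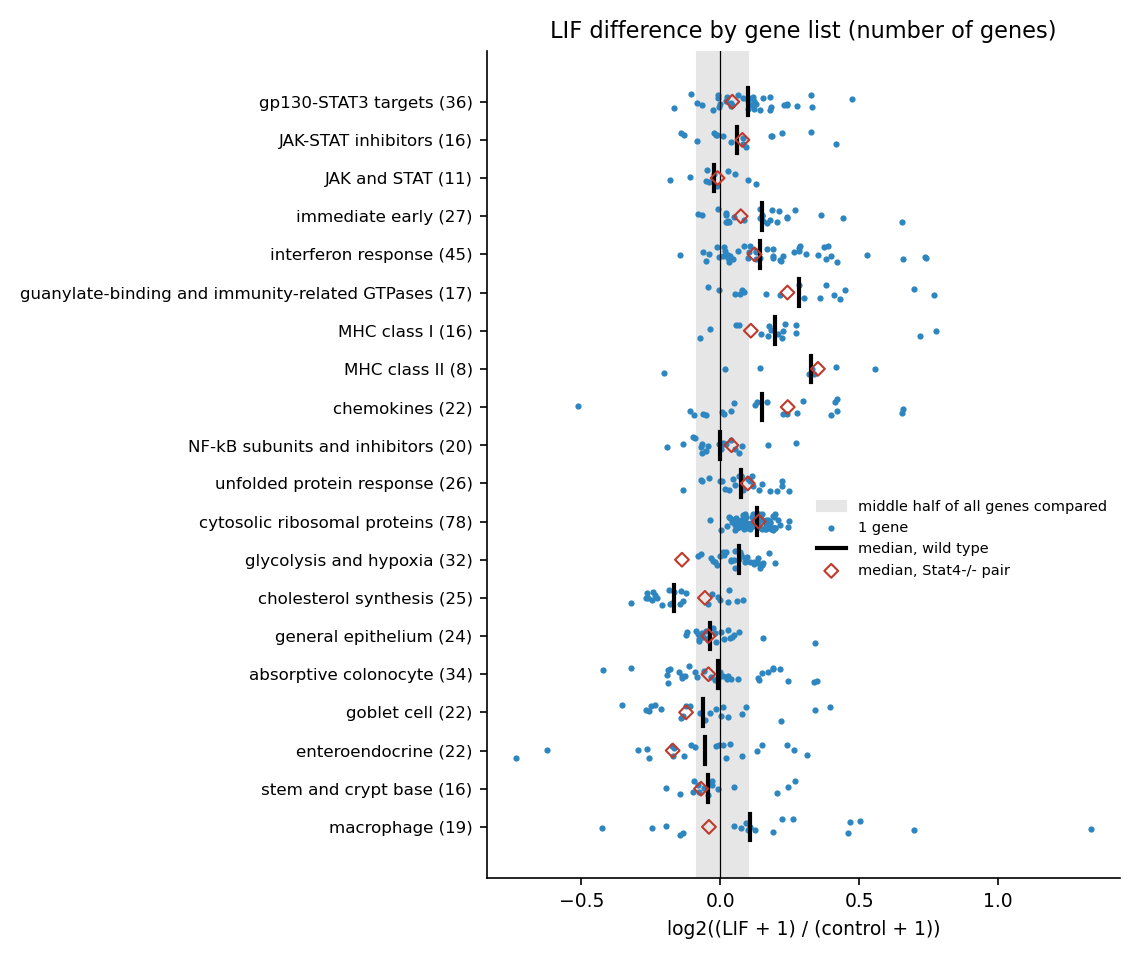
Difference between LIF and control in wild type (horizontal axis, log2((LIF + 1) / (control + 1))) for 20 gene lists, with 1 dot per gene, a black bar at the wild-type median, a red diamond at the Stat4-/- median and a grey band between the quartiles of all genes compared. The bar lies at the right edge of the band for gp130-STAT3 targets (0.10), to the right of it for interferon response, GTPase, MHC, chemokine, immediate early, cytosolic ribosomal protein and macrophage genes, and to the left of it for cholesterol synthesis (-0.17).

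Cholesterol synthesis was the list with the lowest median, -0.17, among all 56 lists. Of 25 genes 4 were above control and 20 below, against 48.7% below over all genes, and none reached 1.5-fold. Genes at several steps of the route were lower. Hmgcs1, which makes the precursor of mevalonate, was at 43.8 FPKM in the control library and 37.04 FPKM with LIF (-0.23). Mvd and Idi1, which act on mevalonate products, were at 8.13 and 6.7 FPKM (-0.25) and 14.4 and 11.8 FPKM (-0.27). Fdps, which makes farnesyl diphosphate, was at 29.8 and 23.7 FPKM (-0.32), and at 20.96 and 17.6 FPKM in Stat4-/-. The later enzymes Sqle and Cyp51 were at 20.1 and 17.1 FPKM (-0.23) and 13.3 and 10.96 FPKM (-0.26). Srebf2, which encodes the master regulator of the route, was at 37.6 and 33.2 FPKM (-0.17). Msmo1 (-0.01) and the feedback gene Insig1 (-0.03) were near level. The Stat4-/- median was -0.06, with 6 above and 19 below. Fatty acid synthesis genes did not share the direction, with 12 of 20 above and a median of 0.05.

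The start of Hmgcs1 is shown because it holds the sterol-response letters TCACNCCAC, searched on both strands, in capitals. The window is chr13:119690101-119690400 on the plus strand (RefSeq, GRCm38.p6).
Hmgcs1: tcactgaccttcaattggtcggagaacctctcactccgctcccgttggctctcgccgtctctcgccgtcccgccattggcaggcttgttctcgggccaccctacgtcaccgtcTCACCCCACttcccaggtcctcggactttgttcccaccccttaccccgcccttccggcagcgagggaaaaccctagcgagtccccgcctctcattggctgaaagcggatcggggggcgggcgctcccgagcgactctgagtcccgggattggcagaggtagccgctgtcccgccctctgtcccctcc
The match begins 137 bases before the start. The motif was in 1.24% of all windows, in 1.42% of compared genes with a window and in 1 of 17 cholesterol synthesis genes, which is Hmgcs1.

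Hormone genes of enteroendocrine cells held some of the lowest differences. Gcg (chromosome 2, 62474530 to 62483650), the precursor of glucagon-like peptides, was at 26.2 FPKM in the control library and 16.7 FPKM with LIF (-0.62), near 692 and 396 fragments, with a counting interval of 0.56 to 0.72 for the ratio. Sct, which encodes secretin, was at 9.1 and 5.07 FPKM (-0.73), near 118 and 59 fragments, with an interval of 0.40 to 0.77. Both were also lower with LIF in Stat4-/-, at 23.2 and 15.1 FPKM for Gcg and 5.47 and 3.05 FPKM for Sct. Tac1 and Nts, which encode substance P and neurotensin, were at 36.8 and 29.7 FPKM (-0.30) and 7.86 and 6.38 FPKM (-0.26). The list as a whole was not lower throughout, with 9 of 22 genes above control, 13 below and a median of -0.05. For the 16 members with a mean of at least 5 FPKM the median was -0.12. In Stat4-/- 4 genes of the list were above and 17 below, with a median of -0.17. The granule gene Chga was at 7.42 and 7.62 FPKM (0.03), Sst, which encodes somatostatin, at 49.1 and 61.3 FPKM (0.31), and Pyy at 41.2 and 45.3 FPKM (0.13).

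Goblet cell genes went both ways. Muc2, the main secreted mucin, was at 80.96 FPKM in the control library and 68.01 FPKM with LIF (-0.25), and at 48.9 and 39.6 FPKM in Stat4-/-. Clca1 was at 104 and 94.6 FPKM (-0.13), and at 69.2 and 50.6 FPKM in Stat4-/-. Tff3, a mucosal repair peptide gene, was at 381 and 350.0 FPKM (-0.12). Clca3b, the most abundant member of the list used, was at 819 and 696 FPKM (-0.23), and at 868 and 733 FPKM in Stat4-/-. Unlike Muc2 and Clca1, it was thus not lower in Stat4-/- than in wild type. Higher with LIF were Agr2, which folds mucins, at 25.8 and 32.96 FPKM (0.34), the goblet cell factor Spdef at 4.32 and 6.0 FPKM (0.40) and the lectin gene Zg16 at 254 and 296 FPKM (0.22). Over the 22 genes, 8 were above, 14 below and the median was -0.06. When each was set against genes of its transcript length, 6 were above and the median was -0.11. In Stat4-/- 7 were above and 15 below, with a median of -0.12.

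Other epithelial programmes were nearly level. The median was -0.04 over 24 general epithelial genes, -0.01 over 34 absorptive colonocyte genes and -0.04 over 16 stem and crypt base genes. Single members stood out from these medians. The transcription factor Cdx2 was at 17.96 and 23 FPKM (0.34), and the chloride-bicarbonate exchanger Slc26a3 at 5.57 and 3.91 FPKM (-0.42). The water channel Aqp8 was at 233 and 267 FPKM (0.19). The stem cell gene Lgr5 was at 0.05 and 0.03 FPKM, too low to be compared. Tight junction and adhesion genes had a median of -0.05, with 19 of 26 below control and the scaffold gene Cgn at 112 and 96.2 FPKM (-0.21). YAP-TEAD targets, which mark mechanical and regenerative signalling, had 12 of 28 above and a median of -0.03, and Yap1 itself was at 33.7 and 34.98 FPKM (0.05). Cell cycle genes split 15 and 15 with a median of -0.02.

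Cytosolic ribosomal protein and unfolded protein response genes were above control for most members, against 50.9% of all genes. Of 78 cytosolic ribosomal protein genes, 77 were above control, with a median of 0.13 and a range of -0.04 to 0.25. Rps29 was at 462 and 549 FPKM (0.25) and Rps27 at 655 and 776 FPKM (0.24). All 78 were above control in Stat4-/-, with a median of 0.14. Unfolded protein response genes, which expand the folding capacity of the endoplasmic reticulum, were above for 22 of 26 with a median of 0.08. The chaperone gene Hspa5 was at 1123 and 1217 FPKM (0.12) and Creld2, which helps form disulphide bonds, at 83.4 and 99.1 FPKM (0.25). Related lists were closer to level. Heat shock chaperone genes were above control for 12 of 18, with a median of 0.03, and 0.01 when length-centred. Mitochondrial ribosomal protein genes were above for 47 of 75, with a median of 0.06, and 0.02 when length-centred.

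Differences followed transcript length, which bears on the ribosomal protein list because its members are short. In 10 classes of equal size by the longest protein-coding transcript, the wild-type median went from 0.09 in the shortest class (351 to 1276 bases) to -0.05 in the longest (6644 bases and over), and the share above control from 69.6% to 30.8%. In Stat4-/- it went from 0.04 to -0.04. When each gene was set against genes of its length, the ribosomal protein median became 0.05, with 59 of 78 above. The median of 51 respiratory chain genes was 0.07 as deposited and -0.01 on the length-centred scale. The lists named next moved less, with length-centred medians of 0.28 for the GTPases, 0.13 for interferon response, 0.14 for MHC class I, 0.08 for gp130-STAT3 targets, 0.11 for immediate early genes and -0.15 for cholesterol synthesis. The median went from 0.15 to 0.10 for chemokines and from 0.33 to 0.26 for MHC class II. What produced the trend with length was not tested.

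**Figure D4:**
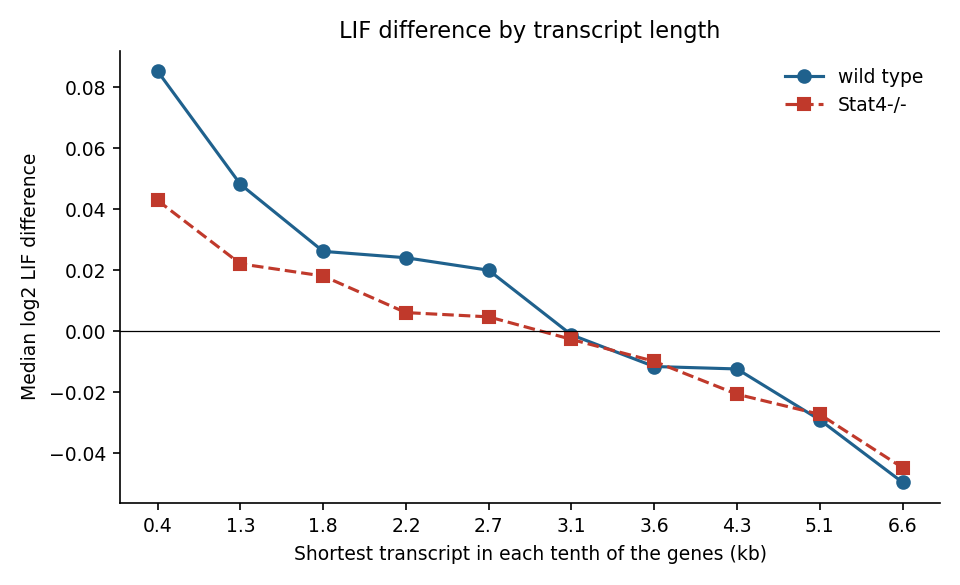
Median difference between LIF and control (vertical axis, log2) in 10 classes of genes by length of the longest protein-coding transcript (horizontal axis, shortest transcript of each class in kilobases), for wild type (blue circles) and Stat4-/- (red squares). Both lines go down from the shortest to the longest class, between 0.09 and -0.05 for wild type and between 0.04 and -0.04 for Stat4-/-.

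By the rule for single genes, the highest differences at 5 FPKM or more also included Pdlim4, a cytoskeletal adaptor gene, at 6.56 FPKM in the control library and 12.7 FPKM with LIF (0.86) and 12.2 and 15.3 FPKM in Stat4-/-. Lsm5, an RNA-processing subunit gene, was at 9.38 and 16.4 FPKM (0.75), and Ubd, an inflammation-induced ubiquitin-like gene, at 1.27 and 2.5 FPKM (0.62) and 6.64 and 10.1 FPKM in Stat4-/-. Ubd reached a mean of 5 FPKM only through the Stat4-/- libraries. Its wild-type values are near 29 and 51 fragments, with a counting interval of 1.22 to 3.20 for the ratio. The red blood cell gene Hbb-b1 was at 16.2 and 27.7 FPKM (0.74). The lowest differences included a pair of BCL2 family genes. Bcl2l15 was at 9.95 and 5.74 FPKM (-0.70) and the pro-death gene Bik at 8.78 and 5.46 FPKM (-0.60), beside 3.66 and 2.91 FPKM and 5.62 and 6.09 FPKM in Stat4-/-. The other 17 genes of that family that were compared lay between -0.39 and 0.33. Il1rl2, the interleukin-36 receptor gene, was at 7.66 and 5.12 FPKM (-0.50), and Ptar1 at 7.5 and 4.53 FPKM (-0.62) with 6.98 and 7.95 FPKM in Stat4-/-. Among genes of at least 100 FPKM, the highest after Cxcl2 and Isg15 included Inhba, an activin subunit gene, at 107 and 128 FPKM (0.25), and the lowest was Clu, which encodes the secreted chaperone clusterin, at 169 and 140.3 FPKM (-0.27) and 170.1 and 99.1 FPKM in Stat4-/-.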

How the data were processed

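RNA was extracted with Trizol and made into TruSeq libraries, per the labels' protocols. Per the submitters' processing notes, HISAT and Bowtie2 were used with mm10; their versions and the FPKM program were not given in the sources. The authors deposited FPKM values per gene, with 1 column per library, so no count test could be run. Differences were computed as log2((LIF + 1) / (control + 1)) where the 4-library mean reached 1 FPKM, with Python 3.11.15, numpy 2.4.6 and pandas 2.3.3. This formula and the 2-fold rule had been run on simulated data with set changes, which they return by construction. The other steps were not checked in this way. No test was made, since each side is 1 library. Gene lists (56) and members were chosen with earlier results of these data known. Named genes were a fixed set, the 15 highest and lowest at 5 FPKM or more and the 10 at 100 FPKM or more (without predicted or mostly shared genes), every gene past 2-fold, and up to 4 leading members and the most abundant member of each list; other list members were picked after their values were seen. GENCODE M21 gave lengths and positions for 96.7% of symbols, and 26 symbols had become dates. Fragment numbers multiply FPKM by length and by the depth estimated from the spacing of low values, and the 95% intervals of a ratio are exact binomial ones. Motif letters were searched in RefSeq windows. Alternatives changed the pseudocount, the filter, the scaling, shared genes and length.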

Additional observations from a re-analysis of the deposited data

Results flagged for a closer look

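In the replication-dependent histone list the median differences between LIF and control had opposite signs in wild type and Stat4-/-. The median over 17 genes was 0.22 in wild type, with 13 above control, and -0.10 in Stat4-/-, with 8 above and 9 below. Only 5 of the 17 had a mean of at least 5 FPKM, and 5 shared over 50% of their words with another gene.

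Glycolysis and hypoxia genes went opposite ways in the 2 genotypes. Of 32 genes, 25 were above control in wild type, with a median of 0.07, and 2 were above in Stat4-/-, with a median of -0.14. Slc16a3, a lactate exporter gene, was at 35.7 and 41.1 FPKM in wild type and at 43.8 and 31.6 FPKM in Stat4-/-, and Bnip3, a hypoxia-induced mitophagy gene, was at 26.5 and 29.5 FPKM and 31.4 and 22.8 FPKM. Neither difference between the genotypes was tested, since each group is 1 library.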

How the results depend on the processing

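Counts past a fold depended on the settings. With a pseudocount of 0.1 there were 38 genes at least 2-fold higher, 22 lower, and 176 and 127 past 1.5-fold; with 5 there were 2, 4, 9 and 6. With no filter on low values, 111 genes were at least 1.5-fold higher and 58 lower. For means of 5 FPKM or more the numbers were 3 and 1 past 2-fold, and 23 (0.26%) and 7 (0.0792%) past 1.5-fold. Without genes that share over 50% of their words, 4 were at least 2-fold lower. Length-centred differences, chosen after seeing the data, gave 5 and 5 past 2-fold, and 46 higher and 41 lower past 1.5-fold, against 72 and 35 without it. Fewer genes or a smaller fold follow from how these settings are built. The cytosolic ribosomal protein median was 0.05 under quantile normalization and 0.05 when length-centred, and the T and NK cell median was 0.46 above 5 FPKM, where 2 genes were left; the cause was not tested. All 12 lists recomputed under the 10 alternatives had a main median of at least 0.10 in size, and none changed sign. Some lists with smaller medians did change sign when length-centred. They included respiratory chain (0.07 to -0.01), inflammatory cytokine (0.02 to -0.02), fetal-like regeneration (0.02 to -0.02) and NRF2 antioxidant genes (0.01 to -0.01). The median of the 4 red blood cell genes, which was not among the 12, was 0.10 and turned to -0.14 when length-centred. Ranges were 0.21 to 0.31 for the GTPases, 0.12 to 0.15 for interferon response, 0.08 to 0.11 for gp130-STAT3 targets, 0.14 to 0.21 for MHC class I, 0.15 to 0.36 for MHC class II, 0.09 to 0.20 for chemokines, 0.07 to 0.24 for macrophage genes and -0.18 to -0.12 for cholesterol synthesis. No paired analysis was possible because each group has 1 library and the groups share only replicate number 1. Single differences, large or small, cannot be told from variation between cultures, which 1 library per group does not measure.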

Other observations

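Genes answering to BMP and TGF-beta signals included higher values in the LIF library. Id2, an inhibitor of basic helix-loop-helix factors, was at 21.7 FPKM in the control library and 29.5 FPKM with LIF (0.43), while the Stat4-/- libraries held it at 24.99 and 24.7 FPKM. Id1 was at 108 and 123 FPKM (0.18) and the inhibitory Smad gene Smad6 at 4.95 and 6.12 FPKM (0.26). Over the 26 genes of the list 15 were above control and the median was 0.02. In the list of matrix receptors and proteases, 9 of 23 genes were above control and 14 below, with a median of -0.03, and -0.00 when length-centred. Its lowest members, picked for their values, included the integrin genes Itga6 at 68.8 and 59.4 FPKM (-0.21), Itgb4 at 60.7 and 53.4 FPKM (-0.18) and Itgb6 at 21.8 and 18.7 FPKM (-0.21). Plat, which encodes tissue plasminogen activator, was at 66.3 and 54.2 FPKM (-0.29), while the abundant protease gene Mmp3 was at 849 and 935 FPKM (0.14). In Stat4-/- the integrin genes and Plat were also lower with LIF, at 61.5 and 55.5 FPKM, 47.9 and 41.5 FPKM, 21.3 and 18.6 FPKM and 73.1 and 64.4 FPKM.

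Amino acid response genes were above control for 18 of 23 members, against 50.9% of all genes, with a median of 0.10. The median was 0.05 for the 21 members with a mean of at least 5 FPKM. When length-centred it was 0.07, with 16 of 23 above. Sesn2, a sensor of leucine, was at 11.2 and 13.4 FPKM (0.24), the serine synthesis gene Phgdh at 44.5 and 50.6 FPKM (0.18) and their regulator Atf4 at 384 and 416 FPKM (0.11). NRF2 antioxidant genes split 13 and 13, with a median of 0.01, although the quinone reductase gene Nqo1 was at 24.7 and 29.9 FPKM (0.27) and at 24.7 and 33.6 FPKM in Stat4-/-.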
